A study of Mus musculus with 7 samples.

Results

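Cxcl13, Cxcr5, Ccl19, Lta, Ltb and Ltbr, genes of the signals that organise lymphoid tissue, were followed across cell classes and treatments of a mouse brain tumour. These 6 genes were taken by symbol from the 32285 genes of the deposited count tables, and all 6 were found. They were chosen by results of these data, above all the level of Cxcl13 in microglia of the library treated with a CD40 agonist, so that comparison with the isotype control is described and not tested.

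Lymphoid tissue is laid out by chemokines and by lymphotoxin. CXCL13 attracts B cells and some T cells that carry its receptor CXCR5, and CCL19 attracts T cells and mature dendritic cells that carry CCR7. Lymphotoxin alpha, alone or joined to lymphotoxin beta on the membrane of lymphocytes, signals through the TNF receptor family, and the membrane form binds the lymphotoxin beta receptor on stromal and myeloid cells. That receptor works through the non-canonical NF-kB pathway, which induces the organising chemokines in stromal cells. In tumours these genes are best known from lymphocyte aggregates called tertiary lymphoid structures.

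Droplet single-cell RNA sequencing (10x Genomics, 3′ end) had been carried out on whole brain tumours of the NSCG line, a glioma line tagged with mCherry that is EGFRvIII+ and Arf/Ink4a-/- per the labels, grown in wild-type C57BL/6 mice of 7 to 10 weeks. Tumours were taken at about day 14, tumours of at least 2 mice were pooled within a treatment group, and the 7 libraries each count as 1 sample. Whether the line is a single clone and whether the replicates came from separate experiments is not given in the sources used here, so the spread between libraries may be partly technical. UT is the untreated control (1 library). IgG received an IgG2b isotype control antibody at 10 mg/kg in 3 rounds (2 libraries), and the labels do not say which IgG library also received the gavage diluent. BP received 5 mg/kg of B20, which blocks VEGF, together with 10 mg/kg of anti-PD-L1 (2 libraries) in 3 rounds of treatment. BPI received the same antibodies, also in 3 rounds, and IPI-145, a PI3K inhibitor, at 10 mg/kg each day (1 library). CD40 received an agonist antibody against CD40 at 100 µg a dose for 2 doses (1 library). Its protocol covers animals with and without a DC vaccine, and does not say which these were.

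The libraries held 68997476 to 186793886 unique molecular identifiers (UMIs), and 48588 cells were used after 3207 of 51795 cells had been marked as doublets. Any pair of libraries shared at most 21 cell barcodes (0.316% of the smaller library). Cells were clustered without the 6 genes and classes were called "X-like" from marker lists, which placed 41800 cells, and every marker of the lists for 10 classes (microglia, monocyte/macrophage, T, B, NK, mature dendritic, endothelial, mural, tumour and neutrophil) was higher in its class than in the rest. The barcodes of UT come from a different list, and its library name does not follow the others. Library names run on from IgG replicate 1 to BP replicate 2 and BPI, and from CD40 to IgG replicate 2, while BP replicate 1 stands alone. The number of microglia-like cells ran from 151 in UT to 884 in CD40, of T-like cells from 39 in IgG replicate 1 to 1290 in BP replicate 1, and of B-like cells from 2 to 56. Levels are given in CPM, a gene's UMIs per 1000000 UMIs of the same class in the same library.

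Cxcl13 (ENSMUSG00000023078) lies on chromosome 5 from 95956951 to 95961068 (plus strand, GRCm38). Cxcr5 (ENSMUSG00000047880) lies on chromosome 9 from 44511787 to 44561877 and shares exon sequence with Bcl9l on the opposite strand. Ccl19 (ENSMUSG00000071005) lies on chromosome 4 from 42754525 to 42756577. A second identifier with the symbol Ccl19 had 0 UMIs and was left out. Lta (ENSMUSG00000024402, 35203165 to 35205351) and Ltb (ENSMUSG00000024399, 35194439 to 35196320) lie close to each other on chromosome 17, in opposite directions. Ltbr (ENSMUSG00000030339) lies on chromosome 6 from 125306571 to 125313885. All 6 are protein-coding genes.

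The 250 bases before the start of Cxcl13 and of Lta are shown because both genes were far higher in UT than in IgG, each in its own cell class. The window of Ccl19, which was also far higher in UT, overlaps an annotated transcript and is not printed. RefSeq's promoter table (GRCm38.p6) held 5 of the 6 members, not Cxcr5. Capitals mark a loose form of the NF-kB binding motif, GGGNNNNNCC, and the core of the box that positions transcription starts, TATAAA. Each was searched on both strands.
Cxcl13, chr5:95956689-95956938 (plus strand): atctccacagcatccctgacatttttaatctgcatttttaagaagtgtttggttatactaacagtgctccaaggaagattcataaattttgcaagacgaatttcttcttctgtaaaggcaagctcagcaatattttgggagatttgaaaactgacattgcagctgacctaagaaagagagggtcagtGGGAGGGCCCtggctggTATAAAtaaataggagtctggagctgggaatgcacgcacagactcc
Lta, chr17:35205352-35205601 (minus strand): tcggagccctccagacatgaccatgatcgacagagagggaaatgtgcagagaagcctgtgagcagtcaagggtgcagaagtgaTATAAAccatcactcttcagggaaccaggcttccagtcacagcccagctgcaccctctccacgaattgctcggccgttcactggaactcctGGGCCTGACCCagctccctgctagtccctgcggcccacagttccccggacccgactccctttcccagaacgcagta
Both windows held both motifs, and the pair of GGGNNNNNCC matches in Lta overlap. TATAAA lies nearer the start than GGGNNNNNCC in Cxcl13 but further from it in Lta. The matches are by letters only, and none was tested as a working site. The window of Ccl19 held 1 GGGNNNNNCC and 0 TATAAA, so the pair of motifs is not shared by all genes high in UT. GGGNNNNNCC was found in 45.8% of 32851 promoter windows of 250 bases and TATAAA in 12.4%, so that the first is common by its letters alone.

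Pooled over the 7 libraries, Cxcl13, Ccl19, Lta and Ltb each had most of their UMIs in 1 cell class. Microglia-like cells held 90.8% of the Cxcl13 UMIs and monocyte/macrophage-like cells 4.96%. T-like cells held 85.7% of the Lta UMIs and 70.1% of the Ltb UMIs, with a further 12.2% of Ltb in NK-like and 4.96% in B-like cells. Endothelial-like cells held 74.8% of the Ccl19 UMIs and mural-like cells 19.2%. UT weighs most in these Ccl19 shares, with 736 UMIs in endothelial-like and 82 in mural-like cells. Mural-like cells held more than endothelial-like cells in CD40 (124 against 116 UMIs) and IgG replicate 2 (38 against 22). In the other libraries with a Ccl19 UMI in these classes endothelial-like cells held more. Of Cxcr5 and Ltbr, 71.2% and 76.2% of UMIs lay in tumour-like cells, the class with most cells by far. A class against another is a description here, since classes came from clustering the same cells.

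**Figure D1:**
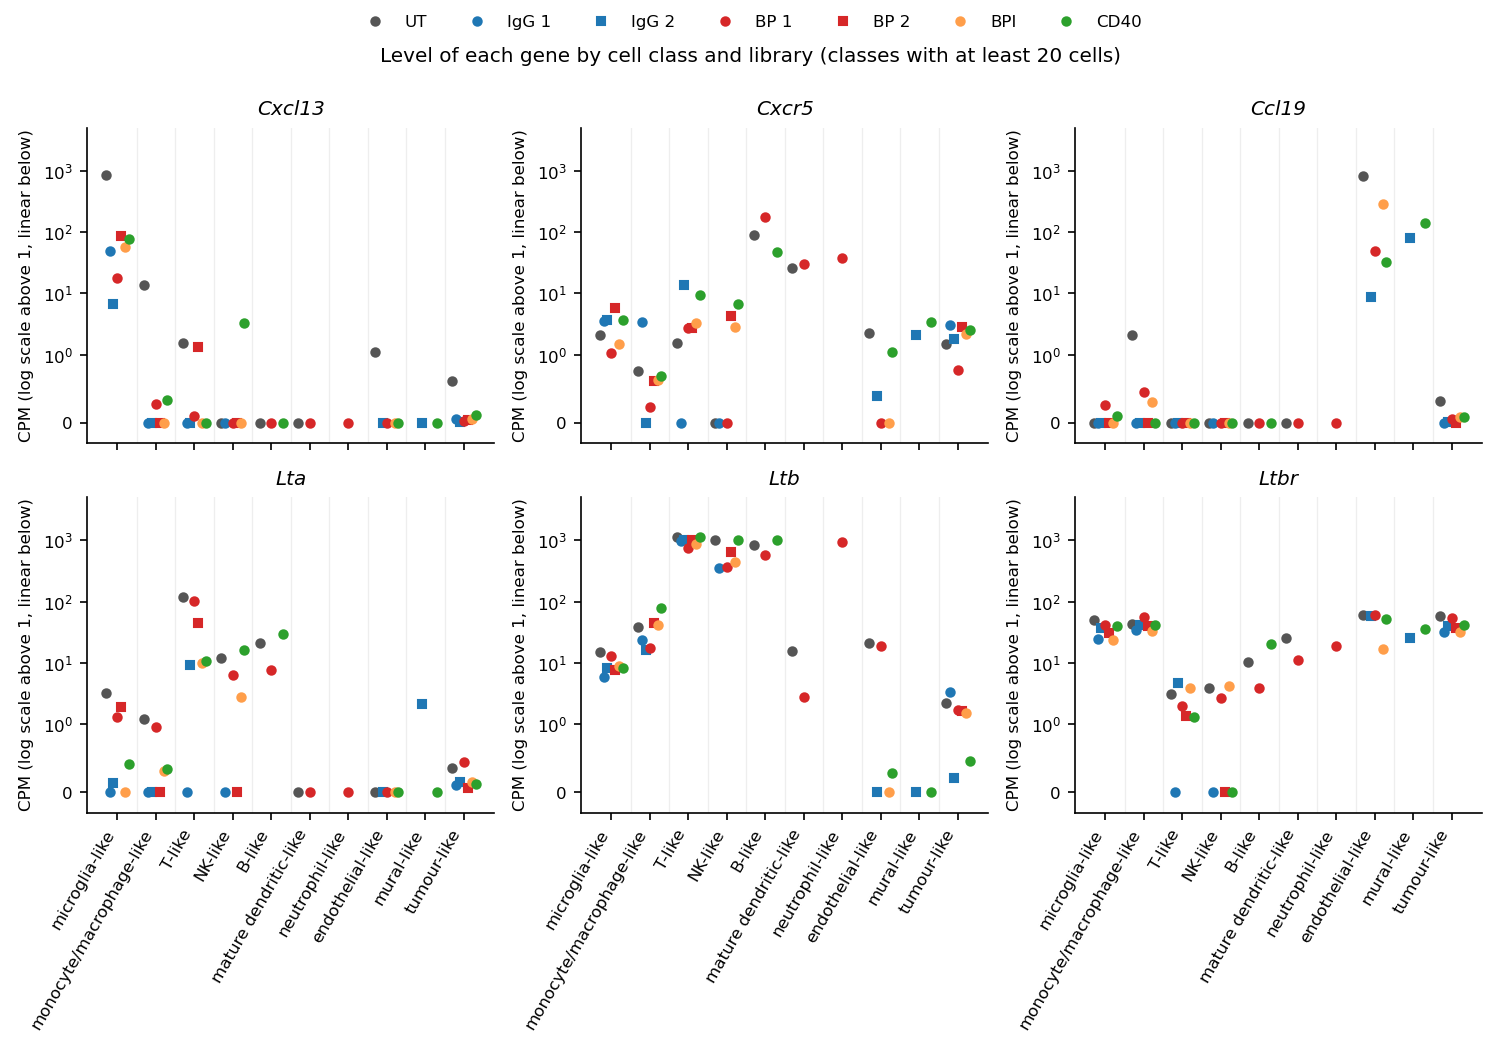
Level of each of the 6 genes (CPM, log scale above 1 and linear below) in each cell class with at least 20 cells, 1 point per library. Cxcl13 stands in microglia-like cells, Ccl19 in endothelial-like and mural-like cells, Lta in lymphocytes and Ltb in lymphocytes and neutrophil-like cells, and Ltbr is present in tumour, myeloid and vascular classes with T-like cells near 0.

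Cxcl13 was found in microglia-like cells of all 7 libraries, and it was UT, not CD40, that stood highest. Its level was 844 CPM in UT. The IgG libraries had 49.2 CPM (replicate 1) and 6.83 CPM (replicate 2), and the BP libraries 17.6 CPM (replicate 1) and 87.6 CPM (replicate 2). It was 56.1 CPM in BPI and 78.5 CPM in CD40. UT was 9.64 to 124 times each other library. CD40 was above both IgG libraries, 1.59 and 11.5 times, above BP replicate 1 and BPI, and 0.896 times BP replicate 2. CD40 thus stood above the isotype libraries and below UT and BP replicate 2. The IgG and BP libraries overlap.

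Few cells carried these UMIs. In UT, 38 of 151 microglia-like cells (25.2%, exact 95% interval 18.5% to 32.9%) had a Cxcl13 UMI, against 8 of 157 (5.10%) and 21 of 744 (2.82%) in the IgG libraries. The share was 15 of 262 (5.73%) and 7 of 166 (4.22%) in the BP libraries, 17 of 211 (8.06%) in BPI and 64 of 884 (7.24%) in CD40. Tumour-like cells, which should lack the gene, had it in 0.03% to 0.68% of cells, at median depths of 5090 to 21003.5 UMIs against 2740 to 12813 UMIs in microglia-like cells, so the shares in microglia-like cells are above this background in every library. With every cell thinned to 1000 UMIs, which left out no cell, the shares were 14.6% in UT, 3.18% and 0.27% in IgG, 0.76% and 3.01% in BP, 4.27% in BPI and 2.60% in CD40. UT stays above the other 6 libraries on this scale, while CD40 is among them. Free RNA in the droplets could account for an estimated 0.23% to 2.54% of the Cxcl13 UMIs of microglia-like cells.

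Within a library the UMIs sat in a handful of cells. The highest cell held 321 of the 794 UMIs of UT (40.4%) and 145 of the 754 of CD40 (19.2%). The highest cells of the IgG libraries held 15 of 42 and 13 of 53 UMIs, those of the BP libraries 23 of 67 and 27 of 46, and that of BPI 12 of 38. At least 10 UMIs were found in 13 of 151 cells of UT and 15 of 884 of CD40. They were found in 2 of 157 and 1 of 744 cells in IgG, 2 of 262 and 1 of 166 in BP and 1 of 211 in BPI. As a share of cells CD40 was thus near IgG replicate 1 and far below UT. Without the highest cell the level was 519 CPM in UT, 32.0 and 5.17 in IgG, 11.6 and 36.9 in BP, 38.6 in BPI and 63.5 in CD40, which then stood above all libraries but UT. That step removed 1 of 64 positive cells of CD40 but 1 of 7 of BP replicate 2. The size of the gap between CD40 and IgG replicate 2 turned on 1 barcode of the latter, which had been marked as a doublet (48421 UMIs in all) and held 279 Cxcl13 UMIs. With marked barcodes kept, IgG replicate 2 stood at 37.4 CPM in place of 6.83 and CD40 was 1.80 times it, against 11.5 times without them. CD40 was then level with BP replicate 2 (67.4 and 66.8 CPM).

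**Figure D2:**
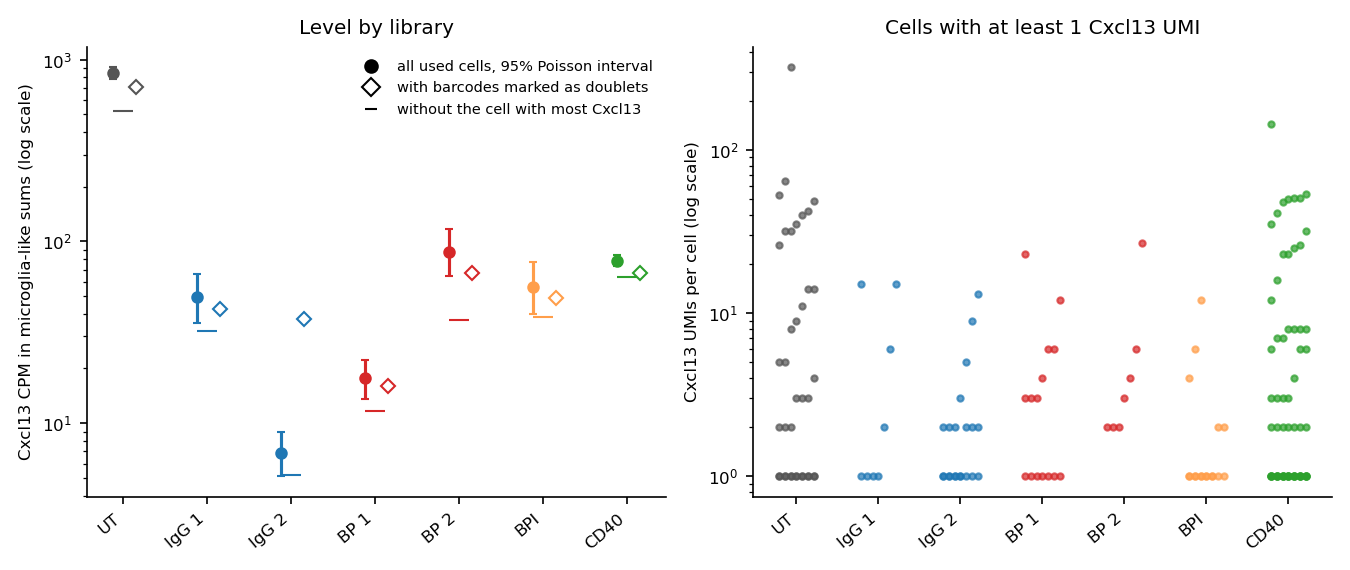
Left, Cxcl13 level in microglia-like cells of each library (CPM, log scale, with 95% Poisson interval), with marked doublets kept (diamonds) and without the highest cell (dashes). Right, UMIs in each microglia-like cell with at least 1 Cxcl13 UMI (log scale), where UT reaches 321 and CD40 reaches 145 in 1 cell.

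The microglia-like class joined cluster 12 with cluster 14, which was lower in P2ry12 in every library (107 to 293 CPM against 630 to 1583 CPM). In UT and BP replicate 1 cluster 14 was also high in Cd74, which works with MHC class II in antigen presentation. Cluster 12 held 87.9% to 97.6% of the microglia-like cells of the IgG libraries, BP replicate 2, BPI and CD40, whereas cluster 14 held 80.1% of UT and 98.1% of BP replicate 1. The untreated Cxcl13 signal lay in cluster 14, with 793 of 794 UMIs (1309 CPM), and that of CD40 in cluster 12, with 728 of 754 UMIs (76.7 CPM). BP replicate 1 had 14.7 CPM in the same cluster 14 that gave UT its level. Cd74 itself was at 20512 CPM in cluster 14 of UT, 14210 CPM of BP replicate 1 and 305 CPM of CD40, and in IgG replicate 2, BPI and CD40 it was lower in cluster 14 than in cluster 12. The part of these cluster differences in the Cxcl13 levels was not tested.

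The fit against IgG in microglia-like cells is read for BP and BPI. It also covered CD40, whose Cxcl13 test is not read because that difference chose the gene. The BP and BPI differences use the same IgG libraries, so for Cxcl13 they share in that choice and no direction is read from them. In BP the log2 fold change was 0.999 ± 1.05 (SE, 2 libraries a group, edgeR quasi-likelihood adjusted p = 0.999), and in BPI 1.36 ± 1.23 (adjusted p = 1.0). Among the 4 members tested in this class, 0 passed in BP, where 0.00805% of 12426 genes did, and 0 in BPI, where 0.0% did. None of the 4 had an unadjusted p under 0.05 in edgeR, and DESeq2 called none of the 3 to which it gave an adjusted p. Without BP replicate 2 the BP difference was −0.23 and without IgG replicate 1 2.81, and over all alternatives that of BPI ran from 0.36 (without IgG replicate 2) to 3.16 (without IgG replicate 1).

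Monocyte/macrophage-like cells had little Cxcl13. They held 92 UMIs in UT (13.95 CPM, 13 of 578 cells), of which 54 lay in 1 cell. BP replicate 1 held 5 UMIs among 1809 cells and CD40 1 UMI among 164 cells. No UMI was found in the IgG libraries, BP replicate 2 or BPI, which allows up to 5.12, 2.25, 1.83 and 0.93 CPM (3 counts per library). In UT the level in this class without that cell was 5.78 CPM, far under that of microglia-like cells.

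Microglia-like cells with a Cxcl13 UMI were then set against those without one in the 3 libraries with at least 20 cells on each side, which were UT (38 and 113 cells), IgG replicate 2 (21 and 723) and CD40 (64 and 820). Of 9015 genes, 280 (3.11%) passed, 127 higher (1.41%) and 153 lower (1.7%) in Cxcl13-positive cells, in an edgeR fit with the library as a block. None passed against negative cells matched for depth, nor without CD40, as given below, so the genes named here depend on these settings. Il12b, which encodes a subunit of IL-12 and IL-23, was higher by 3.08 ± 0.40 on the log2 scale (SE, adjusted p = 0.00571). It stood at 14.0 CPM in positive and 10.3 in negative cells of UT, 179 and 35.5 in IgG replicate 2, and 199 and 12.6 in CD40.

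Acod1, which makes itaconate, was higher by 2.29, and the serpin Serpina3g by 2.32. The chemokine Cxcl16 was higher by 1.33 and Ch25h, which makes an oxysterol that guides B cells once converted further, by 1.30. The cytokine receptor chain Il2rg was higher by 1.53, the activation marker Cd69 by 1.46, the kinase Pim1 by 1.31 and the scavenger receptor Cd36 by 1.28, and Tnfaip2, Slc2a6 and AB124611 by 1.38 to 1.54. In each of the 3 libraries all 12 of these lay higher in positive cells, as the rule that named them required. Serpina3g was at 543 CPM in positive and 154 CPM in negative cells of UT. It was at only 2.72 and 0.14 CPM in IgG replicate 2 and 7.23 and 0.60 CPM in CD40, which rest on few UMIs.

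Among the lower genes, Crybb1, a crystallin expressed by microglia, fell by 2.59 on the log2 scale (adjusted p = 0.00837 in edgeR), from 101.2 to 14.0 CPM in UT, from 56.7 to 0 in IgG replicate 2 and from 48.3 to 11.2 in CD40. The fructose transporter Slc2a5 fell by 2.10, the transporter Slco2b1 by 1.92, the adhesion receptor Adgrg1 by 1.80 and the lipase Mgll by 1.65. Bank1, Csmd3, Col27a1, 8030442B05Rik, Abca9, Gm10790 and P3h2 fell by 1.65 to 2.25. Of the 8 microglia markers 5 were lower and 0 higher, among them P2ry12 (fell by 1.21), Siglech (1.20 lower) and Gpr34 (1.37 lower), with a list median of −0.89 against 0.01 over all genes. Of the 6 monocyte/macrophage markers tested, 2 were lower (Mrc1 and F13a1) and 0 higher. In UT the comparison also ran between clusters. There 37 of 121 cells of cluster 14 were positive and 1 of 30 of cluster 12, with P2ry12 at 287 and 1064 CPM. In IgG replicate 2 and CD40, 21 of 21 and 62 of 64 positive cells lay in cluster 12. P2ry12 was at 639 and 483 CPM in positive cells of these libraries and 1210 and 1114 CPM in negative cells. The part of the clusters in the falls was not tested.

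In the pathway list of 38 genes around the members, 18 were tested in this comparison, 1 passed higher and 1 lower, where 1.41% and 1.7% of all 9015 genes did. Neither passed against depth-matched negative cells or without CD40, as described below for all genes. Tnf, a cytokine that shares receptors with lymphotoxin alpha, rose by 0.88 (adjusted p = 0.00924, edgeR), and Il7r, the interleukin-7 receptor chain, fell by 3.10 (adjusted p = 0.00448). Ltbr, the only member tested, differed by 0.02 ± 0.24 (adjusted p = 0.992). The list median was 0.16 against 0.01 over all 9015 genes.

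Positive cells were deeper, with medians of 4806.5, 14720 and 16674 UMIs in UT, IgG replicate 2 and CD40 against 2995, 6756 and 7703.5 in negative cells. Against depth-matched negative cells, which also cut their number to 38, 21 and 64, 0 of 6017 genes passed in edgeR (351 at an unadjusted p under 0.05). The differences there were 4.99 for Il12b, 2.89 for Serpina3g and 2.63 for Acod1, larger than against all negative cells. They were smaller than against all for the other 9 higher genes, at 0.83 (Cd36) to 1.30 (Il2rg), and for the 9 lower genes that could be tested, at −1.68 (Crybb1) to −0.50 (P3h2). Without CD40 0 of 6437 genes passed (671 at an unadjusted p under 0.05), with Il12b at 2.11 and Crybb1 at −3.44, without UT 651 and without IgG replicate 2 290, and DESeq2 called 291. What ended the calls was not tested.

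**Figure D3:**
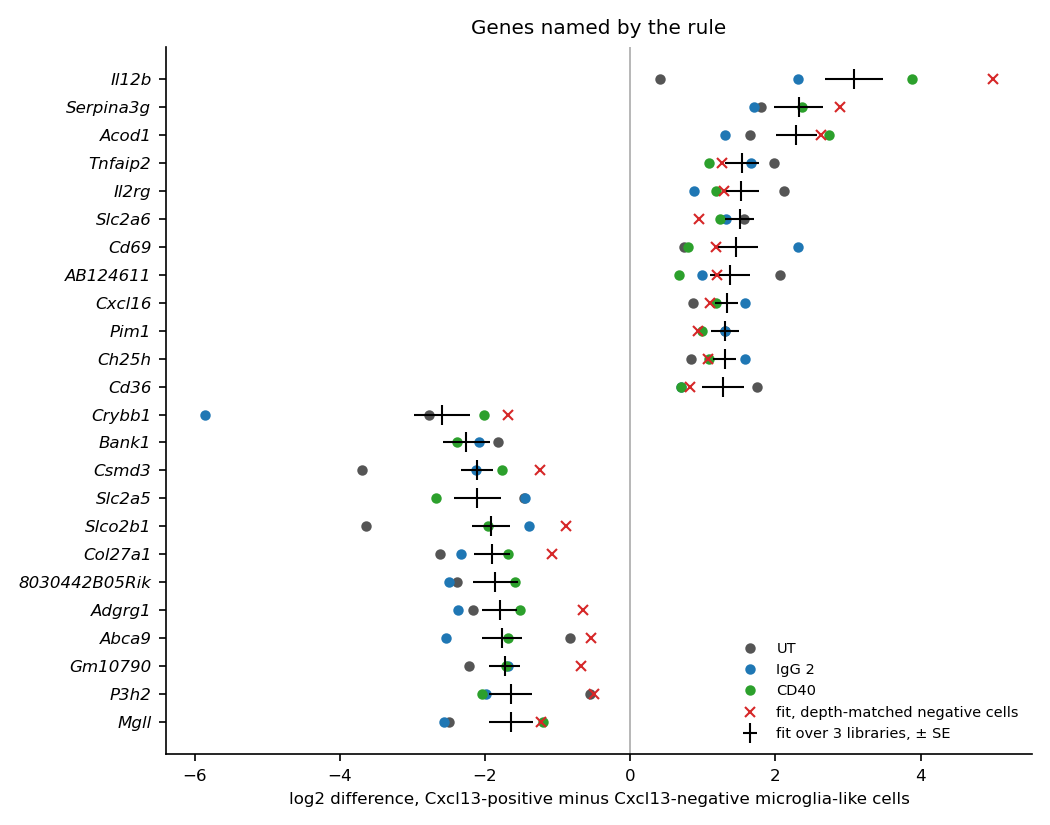
The 12 genes named higher and 12 named lower in Cxcl13-positive microglia-like cells, with the log2 difference in each of the 3 libraries (points), the fit over them (bar with SE) and the fit against depth-matched negative cells (cross). Points lie on the same side of 0 as the fit, while the crosses stand nearer 0 than the fit for all genes that have one but Il12b, Serpina3g and Acod1.

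Cxcr5, the receptor of Cxcl13, was highest in B-like cells. It had 17 UMIs in 41 B-like cells of UT (89.3 CPM), 46 in 53 of BP replicate 1 (176 CPM) and 26 in 56 of CD40 (47.3 CPM), the libraries with more than 14 B-like cells. Counting intervals were 52.0 to 143 CPM in UT, 128.7 to 234 in BP replicate 1 and 30.9 to 69.3 in CD40. They cover counting error in single libraries and say nothing of a difference between treatments. IgG replicates 1 and 2, BP replicate 2 and BPI had 1, 3, 2 and 2 UMIs in 2, 9, 8 and 14 cells, too few to place. A UMI was found in 24.4%, 49.1% and 37.5% of B-like cells of UT, BP replicate 1 and CD40, against 1.34% to 4.11% of tumour-like cells, at medians of 3196, 3600 and 7385.5 UMIs against 5090 to 21003.5. Thinned to 1000 UMIs a cell, the shares were 7.32%, 26.4% and 3.57% against 0.08% to 0.33%.

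In T-like cells Cxcr5 stood at 1.53 CPM in UT, 0 and 13.8 in IgG, 2.75 and 2.70 in BP, 3.28 in BPI and 9.31 in CD40. The 3 UMIs of IgG replicate 2 and 7 of CD40 gave its highest levels, and IgG replicate 1 at 0 UMIs allows up to 24.6 CPM. Cxcr5 passed the filter on low counts in T-like cells only through IgG replicate 2, where it was highest. No direction is therefore read from the differences that follow. Differences from IgG on the log2 scale were −1.86 ± 1.75 in BP, −1.27 ± 1.93 in BPI and 0.05 ± 1.87 in CD40 (edgeR adjusted p 0.929 to 1.0). Microglia-like cells had 1.05 to 5.71 CPM, and tumour-like cells 0.78 to 3.01 CPM. The 105 mature dendritic-like cells, which come from 4 libraries, held 18 Cxcr5 UMIs (29.6 CPM), between B-like and T-like cells. Whether reads were counted by strand is not given in the sources used here, so low Cxcr5 counts cannot be told from reads of Bcl9l.

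Ccl19 was found mainly in vessels and not in mature dendritic-like cells. In endothelial-like cells its level was 817 CPM in UT, 4.52 and 8.77 CPM in IgG, 49.8 CPM in BP replicate 1, 290 CPM in BPI and 32.5 CPM in CD40, with 0 UMIs in the 8 cells of BP replicate 2. UT stood highest and both IgG libraries lowest among the libraries with a UMI. These levels rest on 69, 13, 154, 25, 25 and 189 cells, of which 14, 1, 8, 7, 5 and 29 had a Ccl19 UMI. The 5 highest cells held 88.2% of the 736 UMIs of UT, and 57.8% (CD40) to 100% in the other libraries with a UMI. Without its highest cell UT was at 635 CPM. No test was made, because IgG replicate 1 and BP replicate 2 had fewer than 20 endothelial-like cells. With marked doublets kept UT had 500 CPM and BP replicate 1 152 CPM.

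Ccl19-positive endothelial-like cells had a Ccl21a UMI more often than Ccl19-negative ones in each library counted here. Ccl21a encodes another ligand of CCR7 (its counts are uncertain because near-identical copies exist). In UT 13 of 14 endothelial-like cells with Ccl19 also had Ccl21a, against 8 of 55 without Ccl19. In CD40 the counts were 17 of 29 against 17 of 160, and in IgG replicate 2 5 of 8 against 13 of 146. They were 3 of 7 against 5 of 18 in BP replicate 1 and 4 of 5 against 6 of 20 in BPI. Cells were not matched for depth here. The endothelial-like cluster with a median of 20870 UMIs held 40 cells with Ccl19 and 64 with Ccl21a. Its fellow clusters had medians of 2434 to 9491 UMIs, and the part of depth was not tested. Ccl21a was likewise highest in UT and BPI, with 1494 CPM in UT, 384 and 76.2 in IgG, 139 in BP replicate 1, 1048 in BPI and 221 in CD40. Ackr1, a marker of venules, was at 418 CPM in UT, 370 CPM in BPI, 324 CPM in BP replicate 1, 81.3 and 23.9 CPM in IgG and 68.5 CPM in CD40, so the 3 libraries highest in Ackr1 were also the 3 highest in Ccl19. Madcam1, an addressin of gut vessels and lymphoid organs, was at 0 in 5 libraries and at most 3.93 CPM.

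Mural-like cells, the pericytes and smooth muscle of vessels, held Ccl19 in 3 libraries. There were 82 UMIs in UT (345 CPM, 73 of them in 1 of 13 cells, 48.7 CPM without it), 38 in IgG replicate 2 (79.7 CPM, 26 in 1 of 45 cells) and 124 in CD40 (142 CPM, 72 and 48 in 2 of 158 cells). The other 4 libraries had 0 UMIs in 3 to 12 mural-like cells. Mural-like Ccl19 thus came from 4, 3 and 4 cells, and Ccl21a was found in 1 of these. Fibroblast-like cells of CD40 had 9 UMIs in 3 of 20 cells (43.9 CPM, counting interval 20.1 to 83.4, of which free RNA could account for an estimated 11.6%), where its endothelial-like cells had 32.5 CPM (26.9 to 39.0). Mature dendritic-like cells, which make Ccl19 in lymph nodes, had 0 Ccl19 UMIs in 105 cells, which allows up to 4.93 CPM, at 1136 CPM of Ccl22 and 1583 CPM of Ccr7, both marks of that state.

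**Figure D4:**
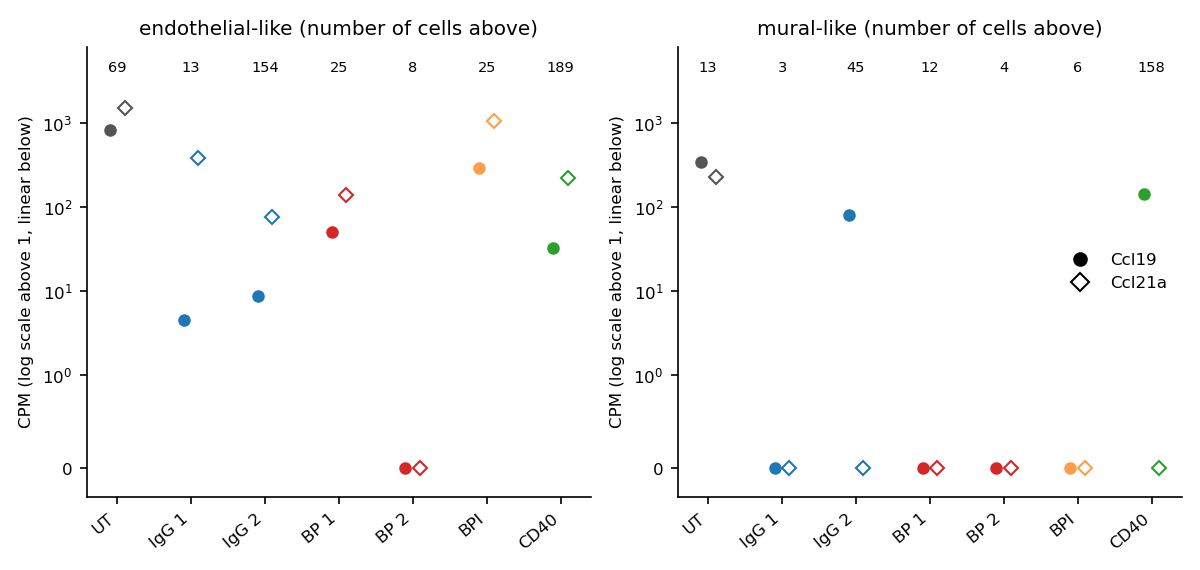
Ccl19 and Ccl21a levels (CPM, log scale above 1 and linear below) in endothelial-like and mural-like cells of each library, with the number of cells above. Ccl19 in endothelial-like cells is highest in UT at 817 CPM and BPI at 290 CPM.

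Lta was higher in T-like cells of both BP libraries than of both IgG libraries. It stood at 118 CPM in UT. The IgG libraries had 0 CPM (replicate 1) and 9.23 CPM (replicate 2), and the BP libraries 104 CPM (replicate 1) and 44.6 CPM (replicate 2). It was 9.83 CPM in BPI and 10.6 CPM in CD40. Both BP libraries lay above both IgG libraries, while BPI and CD40 lay close to IgG replicate 2. The IgG values rest on 0 and 2 UMIs in 39 and 57 cells, and the 0 allows up to 24.6 CPM. Lta passed the filter on low counts only through the BP libraries, where it is high, so the test below adds little to these values. The log2 fold change in BP was 3.46 ± 0.82 (SE, edgeR adjusted p = 0.00779, and 0.00394 with no filter). It was 0.83 ± 1.09 in BPI (adjusted p = 0.990) and 0.77 ± 1.16 in CD40 (adjusted p = 1.0).

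Of the 3 members tested in T-like cells, 1 passed in BP, where 1.17% of 9162 genes did (0.939% higher), and nothing is read from that count because of the filter. None of the 3 passed in BPI, where 0.655% of genes did, nor in CD40, where 0.131% did, with 0 of them at an unadjusted p under 0.05 in edgeR and 0 called by DESeq2. BP was not tested against BPI, so that a difference between them is not shown. In the neighbouring library names, IgG replicate 1, BP replicate 2 and BPI read 0, 44.6 and 9.83 CPM, and IgG replicate 2 and CD40 9.23 and 10.6 CPM.

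The Lta cells were many in BP replicate 1 and few in BP replicate 2. A Lta UMI was found in 77 of 273 T-like cells of UT (28.2%), 0 of 39 and 2 of 57 in IgG, 283 of 1290 (21.9%) and 9 of 227 (3.96%) in BP, 15 of 595 (2.52%) in BPI and 7 (5.43%) in CD40. Tumour-like cells, which should lack it, had it in 0.05% to 0.93% of cells. Median depths of T-like cells ran from 2392 UMIs in BPI to 6093.5 UMIs in BP replicate 1. Thinned to 1000 UMIs a cell, the shares were 8.06% in UT, 0 and 1.75% in IgG, 6.20% and 1.32% in BP, 0.34% in BPI and 0.78% in CD40, so BP replicate 2 was not above IgG replicate 2 (3 and 1 cells) on this scale. In BP replicate 2 a single cell held 21 of the 33 UMIs, and its level without that cell was 16.5 CPM.

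T-like cells fell into finer clusters that the libraries filled unevenly. Cluster 6, led by the cytotoxic enzyme Gzmb and by Cd8a, held 133 cells of UT and 478 of BP replicate 1 and none of IgG, and its Lta level was 155 CPM in UT and 70.4 CPM in BP replicate 1. The cluster was not the same mixture in both, with a Cd4 UMI in 85 cells and a Cd8a UMI in 33 in UT, and in 24 and 433 cells in BP replicate 1. BP replicate 2 and BPI had 12 and 10 cells in cluster 6, with Lta at 63.7 and 60.3 CPM from 3 UMIs each. Cluster 8, with Il2ra, Tnfrsf4, Cd4 and Foxp3, genes of regulatory T cells, held 61 cells of UT and 523 of BP replicate 1 but 3 and 4 of IgG. Its Lta level was 107 CPM in UT and 161 CPM in BP replicate 1. The few cells of the other libraries had 0 CPM in IgG replicate 1 and 112 CPM in IgG replicate 2 (2 UMIs in 4 cells). BP replicate 2 had 37.6 CPM (17 cells), BPI 27.7 CPM (34 cells) and CD40 0 CPM (17 cells). Within this cluster IgG replicate 2 was thus not below BP, on 2 UMIs. Cluster 7 held 85.3% to 91.2% of the T-like cells of IgG, BP replicate 2, BPI and CD40, with Lta at 0 CPM in both IgG libraries, whose 2 UMIs lay in cluster 8, 19.6 and 43.7 CPM in BP, 7.3 CPM in BPI and 12.1 CPM in CD40. In UT that cluster had 3.2 CPM. The summed level of 5 regulatory T markers was 1517 CPM in UT, 639 and 365 in IgG, 2129 and 955 in BP, 905 in BPI and 1339 in CD40, and its part in the Lta level was not tested.

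The call for Lta depended on the libraries. It ended without BP replicate 1 (adjusted p = 0.311), without IgG replicate 1 (0.167) or without IgG replicate 2 (0.123), and within cluster 7 alone (edgeR adjusted p = 0.999), while DESeq2 gave a log2 fold change of 3.46 with no adjusted p. The log2 fold change was 2.87 without BP replicate 1, 2.74 without IgG replicate 1 and 2.74 to 3.77 over all alternatives that left a Lta UMI in IgG. Without IgG replicate 2 and within cluster 7, IgG held no Lta UMI, and fitted folds there are no bound. In cluster 7 the limit for IgG replicate 1, 26.4 CPM, reaches the 19.6 CPM of BP replicate 1, while that for IgG replicate 2, 15.3 CPM, does not. Neither reaches the 43.7 CPM of BP replicate 2, where 21 of 28 UMIs lay in 1 cell.

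**Figure D5:**
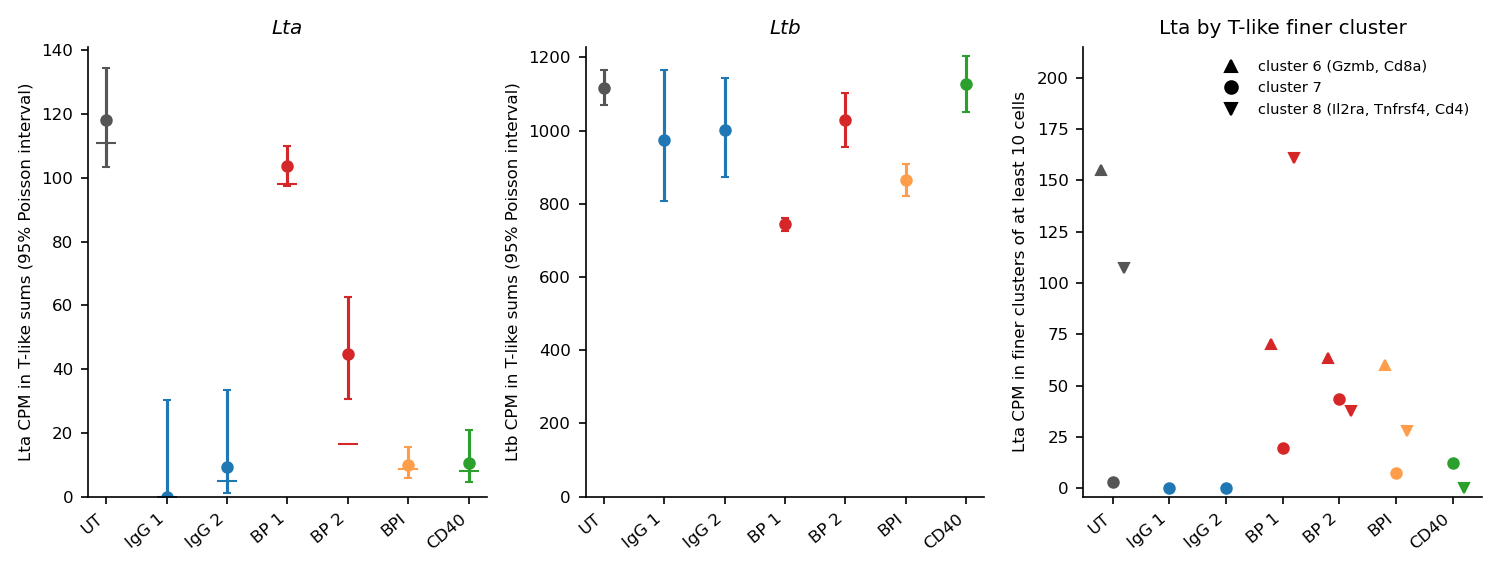
Lta and Ltb levels in T-like cells of each library (CPM with 95% Poisson intervals, dashes for Lta without its highest cell) and, at right, Lta level in each finer T-like cluster of at least 10 cells. Lta stands at 118 CPM in UT and 104 CPM in BP replicate 1, and Ltb between 743 and 1126 CPM in all 7 libraries.

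Ltb, the membrane partner of lymphotoxin alpha, did not pass the test in T-like cells. It had 1117 CPM in UT, 975 and 1002 CPM in IgG, 743 and 1028 CPM in BP, 864 CPM in BPI and 1126 CPM in CD40. The groups overlap, and 74.6% to 92.7% of T-like cells had a UMI. The differences from IgG were −0.28 ± 0.46 in BP, −0.10 ± 0.56 in BPI and 0.11 ± 0.55 in CD40 on the log2 scale (edgeR adjusted p 0.966 to 1.0).

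Other lymphocytes also held Ltb. B-like cells had 825, 569 and 1012 CPM in UT, BP replicate 1 and CD40. NK-like cells had 996 CPM in UT, 356 and 310 in IgG (16 cells in replicate 2), 365 and 647 in BP, 442 in BPI and 1025 in CD40. The ranges of T-like, B-like and NK-like cells overlap across libraries, while within every library NK-like cells were lower than T-like cells. Neutrophil-like cells were as high, with 945 CPM in the 26 cells of BP replicate 1 (50 UMIs), above the 743 CPM of its T-like cells, and 602 to 1894 CPM in the 1 to 13 cells of the other libraries. Plasmacytoid dendritic-like cells had 156 CPM in UT (36 cells), 21.6 CPM in BP replicate 1 (204 cells) and 34.6 CPM in BPI (35 cells), and mast or basophil-like cells 139 CPM in BP replicate 1 (42 cells). Monocyte/macrophage-like cells had 16.5 to 77.6 CPM, microglia-like cells 5.86 to 14.9 CPM and tumour-like cells 0.20 to 3.35 CPM. Free RNA could account for an estimated 0.56% to 39.1% of the Ltb UMIs of monocyte/macrophage-like cells (highest in BP replicate 1), 0.80% to 84.0% of those of microglia-like cells (highest in BPI) and 44.3% to 100% of those of tumour-like cells, so no order is read from these low levels.

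Monocyte/macrophage-like Ltb was at 38.1 CPM in UT, 23.9 and 16.5 in IgG, 17.7 and 44.5 in BP, 40.7 in BPI and 77.6 in CD40. BPI and CD40 lay above both IgG libraries, and the BP libraries on either side of IgG replicate 1. The log2 differences were 0.75 ± 0.59 in BP, 1.55 ± 0.67 in BPI and 2.00 ± 0.66 in CD40, and none passed after adjustment (edgeR adjusted p = 0.856, 0.476 and 1.0), though BPI and CD40 had unadjusted p of 0.0486 and 0.0162. In CD40 the highest cell held 41 of 228 UMIs, and 64.6 CPM remained without it. T markers summed to 0 to 40.3 CPM in these sums. NK markers summed to 472 CPM in UT, 71.7 and 12.7 in IgG, 107 and 187 in BP, 305 in BPI and 10.2 in CD40, so they were above IgG in BPI and not in CD40. Markers of type 2 conventional dendritic cells summed to 119 CPM in UT, 88.7 and 112.5 in IgG, 256 and 152 in BP, 112.3 in BPI and 141 in CD40, above both IgG libraries in CD40. The part of these cells in the Ltb level was not tested. Of the 2 members tested, 0 passed in BP, BPI or CD40, as did 0.0% of 11842 genes in each (edgeR), and 0, 1 and 1 had an unadjusted p under 0.05. DESeq2 called 0 of them.

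Ltbr, the receptor, was spread over tumour, myeloid and vascular cells. Tumour-like cells had 57.4 CPM in UT, 32.4 and 40.2 in IgG, 53.0 and 36.4 in BP, 31.6 in BPI and 41.1 in CD40. Monocyte/macrophage-like cells ranged from 32.97 to 56.6 CPM, microglia-like cells from 23.6 to 49.98 CPM and endothelial-like cells of the libraries with at least 20 of them from 17.1 to 60.2 CPM. These ranges overlap, and T-like and NK-like cells, at 0 to 4.62 and 0 to 4.21 CPM, lay under all of them.

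The treatments did not move Ltbr past the test. In microglia-like cells it was 49.98 CPM in UT, 24.6 and 36.5 in IgG, 42.1 and 30.5 in BP, 23.6 in BPI and 40.6 in CD40, with log2 differences from IgG of 0.26 ± 0.37 in BP and −0.28 ± 0.50 in BPI. In monocyte/macrophage-like cells the differences were 0.43 ± 0.35 in BP, 0.30 ± 0.42 in BPI and 0.16 ± 0.42 in CD40. Adjusted p from edgeR was 0.865 to 1.0 over these 5 differences.

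The other genes of the pathway were read from the same fits. In T-like cells 22 of 38 were tested. In BP Lta passed higher, from which nothing is read because of the filter, as above. Cxcr4, the receptor of the chemokine Cxcl12, fell by 1.79 ± 0.49 on the log2 scale (edgeR adjusted p = 0.0350). Over all 9162 genes 0.939% passed higher and 0.229% lower in BP. At an unadjusted p under 0.05 in edgeR there were 6 of the 22 in BP, and 719 of all genes. Cxcr4 stood at 41.0 and 138 CPM in IgG (5 and 30 UMIs) and 30.8 and 33.8 CPM in BP, so that IgG replicate 2 set most of the difference, and without that library it was −0.48 (adjusted p = 0.969). It also lost its call without BP replicate 1 (adjusted p = 0.338). The list median in T-like cells was 0.33 in BP, 0.23 in BPI and 0.10 in CD40, against 0.05, 0.04 and 0.03 over all genes. In BPI and CD40 0 of the 22 passed in edgeR, 6 and 1 had an unadjusted p under 0.05 (628 and 359 of all 9162 genes), and DESeq2 called 0.

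In microglia-like and monocyte/macrophage-like cells 24 of the 38 were tested and 0 passed in BP or BPI, nor did any in monocyte/macrophage-like cells of CD40 (edgeR). At an unadjusted p under 0.05 there were 2 and 2 in microglia-like cells and 9, 12 and 1 in monocyte/macrophage-like cells, against 592 and 422 of all 12426 genes and 927, 1233 and 111 of all 11842 genes. DESeq2 called 1 of the list in monocyte/macrophage-like cells of BP (Birc3), where it called 1.24% of 9368 genes, and 4 in BPI (Birc3, Il6, Icam1 and Traf3), where it called 2.54% of 7709 genes. It called 0 in the other 3. In monocyte/macrophage-like cells 22, 21 and 18 of the 24 lay above 0 in BP, BPI and CD40, with list medians of 0.84, 1.24 and 0.36 against 0.04, −0.00 and −0.01 over all genes. The 7 genes of the non-canonical NF-kB pathway had medians of 1.12, 1.99 and 0.56 there. The 3 comparisons share their IgG libraries. In BP the 2 adhesion genes tested had a median of 1.53 and the 3 follicular genes of 0.10. In microglia-like cells 20 and 16 of the 24 lay above 0 in BP and BPI. The list medians there were 0.35 and 0.38 against −0.04 and −0.09 over all genes. Medians were 0.37 and 0.54 for the non-canonical NF-kB genes, 1.57 and 1.12 for the adhesion genes and −0.37 and 0.38 for the follicular genes.

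Across 57 sums of 1 library and 1 class with at least 20 cells, the genes most like each member were sought among 15332 genes by Pearson's correlation of log2(CPM + 1), as a description, since these sums share libraries and depth. Cxcl13 was most like Cryba4 (0.86), Crybb1 (0.85) and Siglecf (0.84), the second of which fell in the Cxcl13-positive cells above. Ccl19 was most like Foxf2 (0.91), Emcn (0.91) and C1s1 (0.90), Lta like Gimap3 (0.79), Cd2 (0.78) and Zbtb32 (0.77), and Ltb like Arhgap15 (0.91), Lamb3 (0.91) and Acap1 (0.90). Cxcr5 was most like Pax5 (0.64), Nfkb2 (0.61) and Tmem131l (0.60), and Ltbr like Ralb (0.89), Ctbp2 (0.83) and Parvb (0.82).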

How the data were processed

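Raw UMI counts of all barcodes for 7 libraries, as deposited, were used. Per the submitters' processing notes the authors used Cell Ranger 7.0.1 and mm10, while the file headers name Cell Ranger 4. Whether intron or antisense reads were counted is not given in the sources used here. The labels name V2 chemistry for every library, but the barcode list of UT differs from that of the others.

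A barcode was kept from 1000 UMIs and 500 genes upward if its mitochondrial share was no more than 15%. Doublets were marked per library by comparison with simulated doublets, taking the highest 0.8% per 1000 cells. Cells were clustered by the Leiden algorithm (resolution 1, leidenalg 0.10.2, scanpy 1.11.5, Python 3.11.15) on 2000 variable genes without the members and 30 principal components. Classes were named from marker lists, by a scoring rule set after the data were seen, and are rebuilt names, not the authors' annotation. The members, gene lists and tests were chosen with earlier results of these data known.

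UMIs were summed per library and class. T-like, monocyte/macrophage-like and microglia-like cells, each with at least 20 cells in every one of the 6 libraries other than UT, were tested with those 6 in 1 fit per class with the quasi-likelihood method of edgeR 4.0.16 (R 4.3.3, TMM, filterByExpr, Benjamini-Hochberg over all genes, threshold 0.05). BPI and CD40 are 1 library each and are assumed to vary like the other groups. Tumour-like cells also had enough cells, but no test was run on them. UT entered no test between treatments. Alternatives were DESeq2 1.42.0, RLE size factors, no filter on low counts, resolution 2, at least 2000 UMIs, free RNA subtracted (estimated from barcodes of 10 to 100 UMIs), doublets kept, a replicate block and each library left out. The tests were checked on simulated data. Genes named in the Cxcl13 comparison had an adjusted p under 0.05, an average log2 CPM of at least 5, 1 sign in every library used and a free RNA share under 10%, and the 12 that rose most and the 12 that fell most were taken. Intervals are exact at 95% and, like the limit of 3 counts given for a count of 0, cover counting error only.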

Additional observations from a re-analysis of the deposited data

Results flagged for a closer look

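The UT library, which entered no test between treatments, stood above both IgG libraries for Cxcl13 in microglia-like, Lta in T-like and Ccl19 in endothelial-like cells. Cxcl13 in its microglia-like cells was at 844 CPM, where the higher IgG library had 49.2 CPM. Lta in its T-like cells was at 118 CPM against 9.23 CPM. Ccl19 was at 817 CPM in its endothelial-like cells against 8.77 CPM. The 5 highest of 69 cells held 88.2% of these UMIs of UT, and the level was lower with marked doublets kept. In mural-like cells Ccl19 was at 345 CPM in UT against 79.7 CPM in IgG replicate 2. In UT 73 of the 82 UMIs lay in 1 cell, and in IgG replicate 2 26 of 38. Without these cells UT was at 48.7 CPM and IgG replicate 2 at 25.5 CPM, each from very few cells. UT is 1 library with another barcode list, so its condition and its library cannot be told apart.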

How the results depend on the processing

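The count of 1 member called in T-like cells of BP became 0 within finer cluster 7 (chosen after seeing the data) and with the replicate block, and ran from 0 to 1 with a library left out, being 0 without BP replicate 1, IgG replicate 1 or IgG replicate 2. DESeq2 gave Lta no adjusted p. Called genes of the Cxcl13 comparison, 280 in edgeR, were 841 at resolution 2, 672 with no filter, 0 with depth-matched negative cells and 0 to 651 with a library left out, the lowest without CD40 and the highest without UT. RLE scaling also gave 280, with 144 higher in place of 127, so the genes called were not all the same. At resolution 2 UT had only 10 positive cells and was not used. Cxcl13 in CD40 microglia-like cells was at 67.4 CPM with doublets kept and 63.5 CPM without its highest cell (chosen after seeing the data). Beyond fewer samples or cells where these were left out, the cause was not tested.

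Same-numbered IgG and BP libraries did not deviate together (correlations −0.06 in T-like, −0.18 in monocyte/macrophage-like and 0.01 in microglia-like cells), so the number was not taken as a pairing. With the replicate block 0, 82 and 12 genes were called there in place of 107, 0 and 1, and with crossed pairing 520 in monocyte/macrophage-like cells.

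Over all alternatives the genes called for BP, BPI and CD40 ran from 0 to 240, 1 to 119 and 0 to 17 in T-like cells (107, 60 and 12 as reported). They ran from 0 to 520, 0 to 618 and 0 to 42 in monocyte/macrophage-like cells (0 in each), and for BP and BPI from 0 to 996 and 0 to 234 in microglia-like cells (1 and 0). Few T-like cells in IgG (39 and 57) limit what can be seen of Lta and Cxcr5, and 1 or 2 libraries a group limit every test between treatments.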

Other observations

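Lta was also found in B-like cells. In CD40 these had 29.1 CPM (16 UMIs in 14 of 56 cells), above the 10.6 CPM of its T-like cells (8 UMIs). In UT and BP replicate 1 B-like cells had 21.0 and 7.64 CPM (4 and 2 UMIs), under the 118 and 104 CPM of T-like cells. NK-like cells of CD40 had 16.5 CPM from 5 UMIs. Plasmacytoid dendritic-like cells of BP replicate 2 had 92.1 CPM of Lta from 9 UMIs, of which 8 lay in 1 cell. At resolution 2, 100 of the UT cells of cluster 14 fell into a cluster of low depth that was left unnamed although all 8 microglia markers were raised in it, and the remaining microglia-like cells of UT had 932 CPM of Cxcl13.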
